A study of Drosophila melanogaster with 2 samples.

Results

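The neuroblast temporal factor genes are 10 genes, hb, Kr, nub, pdm2, cas, svp, grh, slp1, slp2 and D, chosen by name out of 13945 protein-coding genes on the 6 main chromosome arms of Drosophila melanogaster, and all 10 were found in the annotation. Their start sites and gene bodies were searched for binding of Klumpfuss (Klu), a zinc finger transcription factor. Klu fused to enhanced green fluorescent protein was precipitated with an antibody against the fluorescent protein from whole embryos of the klu-GFP strain collected between 0 and 24 h, and the DNA, sheared by sonication to between 200 and 800 bp, was sequenced (ChIP-seq). The samples were 2 biological replicates of 1 group, with no second genotype, treatment or stage and no control library analysed here. The labels give the insertion as one aimed at klu and do not state the promoter that drives the fusion. Whole embryos mix all tissues, so no peak can be tied to neuroblasts or to any other cell type. The files are peak lists and hold no numbers of reads, which leaves the sequencing depth of both libraries unknown.

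Neuroblasts, the neural stem cells of the fly, express a series of transcription factors one after another, and the factor present when a daughter cell is born helps to set the identity of its neurons. In the embryonic nerve cord the series runs from hb to Kr, then nub and pdm2, then cas and then grh, and svp switches hb off. slp1, slp2 and D act in later series in the optic lobe and, for D and grh, also in intermediate neural progenitors. klu is itself expressed in neuroblasts. Several of these genes also have other roles, hb, Kr, D and the slp genes in segmentation and grh in the epidermis.

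One of the 2 thresholded peaks given to a member by nearest start lay in the 9740 bp between slp1 and slp2, and its sequence is shown because it was the higher of them. It is the window of 100 bp on either side of the summit in the pooled list (BDGP release 6, the assembly of dm6, plus strand, 2L:3832390-3832590, intergenic), in lower case. Capitals mark the 2 copies of GGTCACACT and the 2 E-boxes (CANNTG, the consensus of basic helix-loop-helix factors).
slp1-slp2 peak: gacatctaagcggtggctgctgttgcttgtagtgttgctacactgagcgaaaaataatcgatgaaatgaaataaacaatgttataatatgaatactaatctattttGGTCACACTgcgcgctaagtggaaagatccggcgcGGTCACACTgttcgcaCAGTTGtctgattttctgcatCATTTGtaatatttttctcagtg
Both copies of GGTCACACT lay on the same strand on the slp2 side of the summit, at 6 to 14 and 41 to 49 bp from it. This 9-mer, the core of the Drosophila promoter element known as Motif 1, was searched on both strands only after this window had been read. It was present in 41 of 3087 pooled windows of the same length (1.33%), and only the slp1-slp2 window held more than 1 copy. The zinc finger sites GTGGGCG and GTGGGTG, of the kind that the related EGR proteins bind, were not in the window. They were in 3.56% and 5.54% of all pooled windows. Nor were GAGAG (23.4% of pooled windows), TATCGATA (3.01%) and CACNNG (58.8%), while E-boxes, which it did hold, were in 59.2%. The window had a GC content of 39.8%, against a median of 35.8% and quartiles of 31.3 and 42.8% over the pooled windows.

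No temporal factor gene had a peak at its start, and 2 of the 10, slp2 and grh, had 1 farther away. The peaks were counted in the 4 thresholded lists that the authors deposited, a pooled and a shorter conservative list of the series and 1 list for each replicate. They hold only peaks that scored 830 or more on a scale of up to 1000 for how well a peak is found again between lists (irreproducible discovery rate, IDR). A gene counted when a summit lay within 1 kb of any of its annotated starts. By this rule 0 of 10 members had a pooled peak, against 16.1% of all protein-coding genes (2243 of 13945). It was also 0 of 10 in the conservative list (13.1% of all genes), in that of replicate 1 (8.96%) and in that of replicate 2 (14.9%). With 10 genes a count of 0 allows a share of up to 30% in counting error alone, so these counts do not set the family apart from other genes.

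Counting summits anywhere in the gene body, introns included, gave 1 of 10 members, grh, in every list. The share of all genes was 8.83% in the pooled list, 7.13% in the conservative list, 5.03% in that of replicate 1 and 7.41% in that of replicate 2. When each peak went to the protein-coding gene whose start was closest, however far, 2 of 10 members, slp2 and grh, received 1 peak each in every list. All genes reached 15.7% in the pooled list, 12.6% in the conservative list, 8.78% in that of replicate 1 and 13.7% in that of replicate 2. With 5 kb in place of 1 kb, the same 2 members had a pooled peak, against 31.6% of all genes. All these shares of the members differ from the background by less than 2 genes out of 10.

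The slp genes are neighbours that encode closely related forkhead factors. Their peak (2L:3832290-3832689) had its summit 4350 bp upstream of the start of slp2 and 6815 bp downstream of that of slp1, with no annotated gene at the summit. The signal, which is the authors' own height for a peak on a scale they do not state, was 242 in the pooled list, 94.3 in the list of replicate 1 and 138 in that of replicate 2, with the highest score of 1000 in each. By signal it ranked 420 of 3087 pooled peaks, 458 of 1511 in replicate 1 and 461 of 2561 in replicate 2. The summits of replicate 1 and replicate 2 lay 4357 and 4350 bp from the slp2 start, so both libraries placed it within 7 bp. The authors' ranked list of the series, which also holds the candidate peaks below the threshold, had 52 summits within 20 kb of it, this one included, and the next highest had a signal of 38.8. The thresholded peak was 6.25 times as high as that one. This ratio depends on the 20 kb limit. Beyond it, at 16.7 kb from the first annotated base of slp2, a candidate below the threshold had a signal of 63.3. Farther out, at 24.7 and 26.0 kb, candidates had signals of 46.5 and 53.1.

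grh encodes the CP2-type factor Grainyhead, the last of the embryonic series. Its peak lay in an intron, 2091 bp downstream of the nearest of 5 annotated starts (2R:17804758-17805157, gene FBgn0259211 at 17801132 to 17842820, plus strand). The signal was 165 in the pooled list, 48.3 in that of replicate 1 and 104 in that of replicate 2, and the scores were 1000, 886 and 1000. The peak was well inside the threshold in replicate 2 and near its lower end in replicate 1. It ranked 790 of 3087 pooled peaks, 1270 of 1511 in replicate 1, where 15.9% of the list was weaker, and 754 of 2561 in replicate 2, where 70.6% was weaker. Other candidate peaks of grh came close to the threshold in the series list without reaching it. In the series list, one 2616 bp from the main summit had a signal of 72.2 and a score of 671. One 282 bp upstream of a start, in an exon, had a signal of 54.9 and a score of 648. The second ranked list of the series gave the same 2 peaks scores of 771 and 318. At the starts of grh the highest score was 374 in replicate 1 and 290 in replicate 2. A gene of this length is more likely to hold a peak than a short one. Among the 4 members of 29.1 to 44.0 kb (nub, pdm2, svp and grh), 1 had a pooled peak in its body, against 36.6% of the 298 protein-coding genes of that range. The window around the grh summit had a GC content of 31.8%, and of the 7 motifs searched it held only GAGAG, once.

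**Figure D1:**
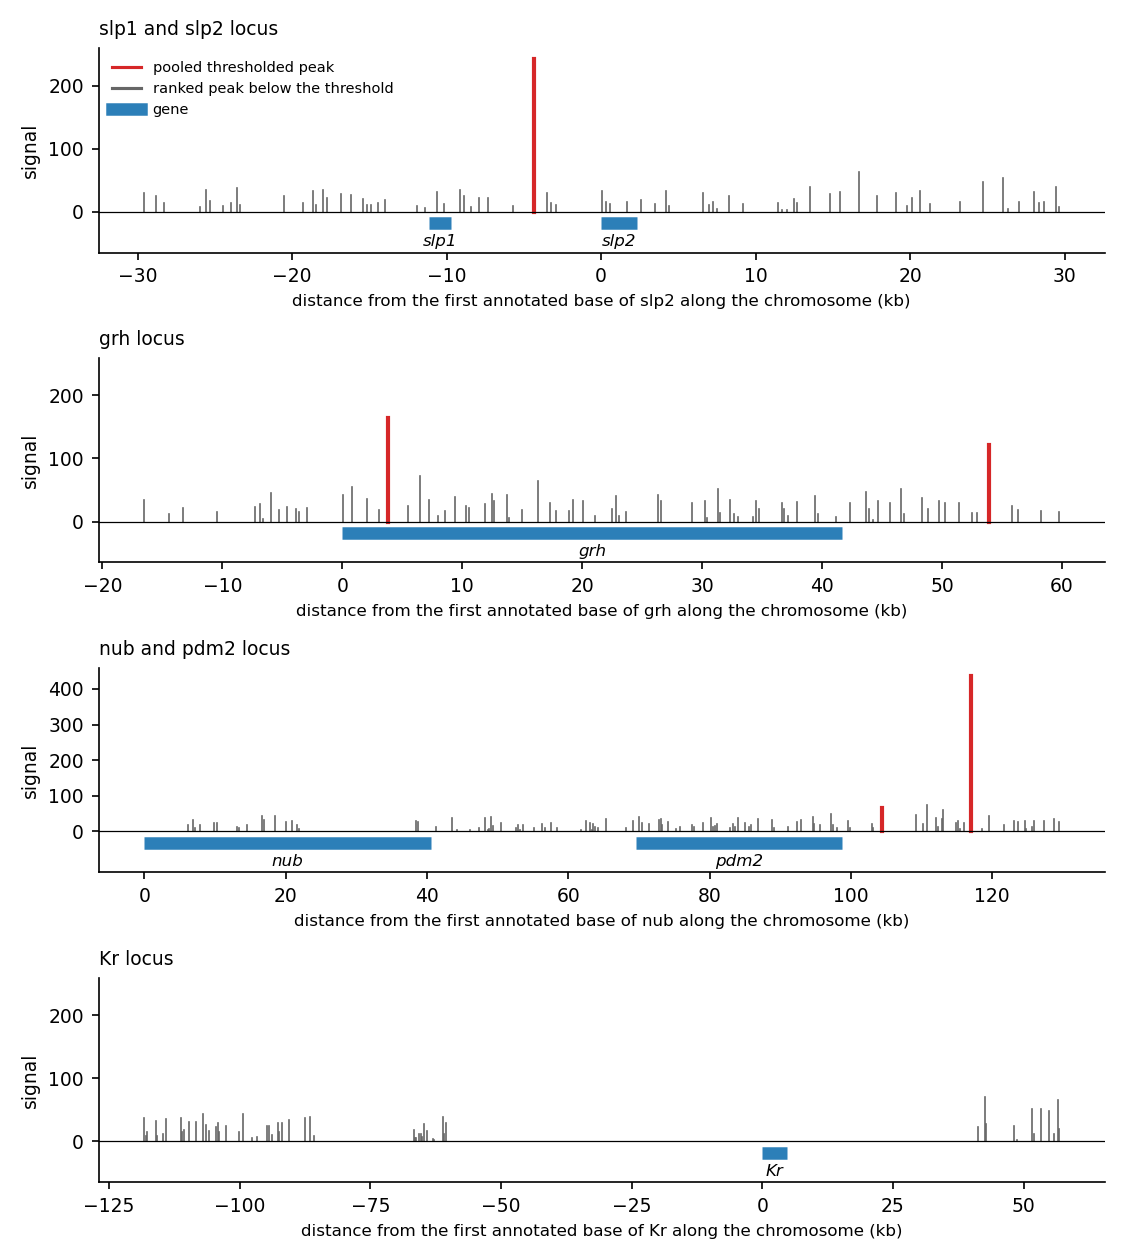
Signal (vertical axis, deposited units) of the peaks in the ranked list of the series around slp1 and slp2, grh, nub and pdm2, and Kr, against the distance in kb from the first annotated base of the gene named under each panel. Red lines are peaks of the pooled thresholded list, grey lines are candidates below the threshold and blue bars are genes. One red line of 242 stands between slp1 and slp2 and one of 165 inside grh; the red lines right of grh and of pdm2 lie outside both genes, and no line lies near Kr.

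The starts themselves carried candidate peaks of ordinary height. In the ranked list of the series, 8 of 10 members had at least 1 ranked peak within 1 kb of a start, against 83.1% of all genes. It was 8 of 10 in the ranked list of replicate 1 (82% of all genes) and 7 of 10 in that of replicate 2 (69.9%). The signal of the strongest start peak lay between 31.3 and 54.9 in these 8 members, and its median was 40.2, against a median of 37.3 and quartiles of 26.6 and 57.2 over the 11590 genes that had one. Genes with a pooled peak at a start had a median of 135. Placed among all 13945 genes, with those lacking a ranked peak lowest, the members had a median percentile of 56.3 (8.44 to 77.8). The median percentile was 55.8 in replicate 1 and 45.4 in replicate 2. For scale, klu itself had a start peak of 108 in the series list, 46.8 in replicate 1 and 58.7 in replicate 2, with scores of 1000, 938 and 1000.

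**Figure D2:**
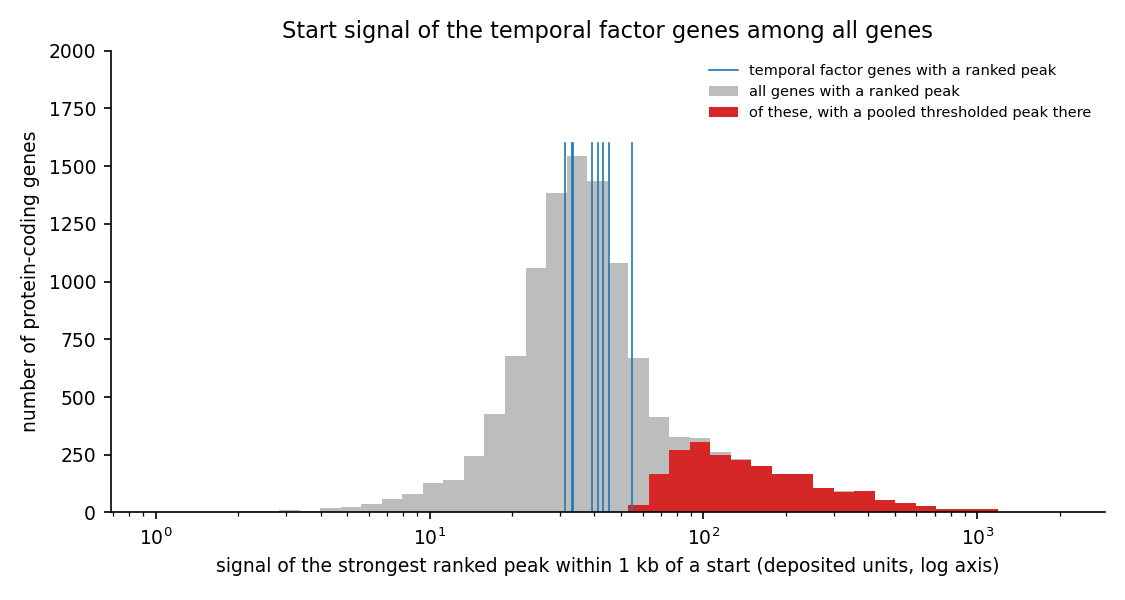
Number of protein-coding genes (vertical axis) by the signal of their strongest ranked peak within 1 kb of a start in the series list (horizontal log axis, deposited units). Blue lines are the 8 temporal factor genes with such a peak, grey bars are all 11590 genes with one and red bars are the genes with a pooled thresholded peak there. The blue lines run from 31.3 to 54.9, inside the main body of the grey bars, and nearly all of the red bars lie to the right of the blue lines other than that of grh.

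Taken in the order of the embryonic series, hb came first. It encodes a zinc finger factor of the earliest neuroblast stage, and its strongest start peak in the series list had a signal of 41.2 and a score of 155, in an exon 355 bp downstream of a start. Replicate 1 had a peak of 31.5 there, 300 bp from the start (score 329). Replicate 2 had no ranked peak at that start, only one of 9.95 at 909 bp from the other start (score 17, the lowest of that list). hb thus stood at percentile 83.1 of all genes in replicate 1 and 33.7 in replicate 2.

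The POU domain genes nub and pdm2 act together in the stage after Kr and lie side by side. The 98.7 kb that the pair spans held no thresholded peak in any list, and 83 ranked peaks in the series list, the highest with a signal of 47.7. The start of nub was empty: no ranked peak of the series list or of replicate 1 lay within 1 kb of any of its 3 starts, and replicate 2 had one of 17.0 (score 61), 590 bp upstream of the first. nub accordingly stood at percentile 8.44 in the series list, 8.99 in replicate 1 and 48.4 in replicate 2. In the series list a stretch of 36.5 kb around the first start and one of 16.6 kb around the other 2 held no ranked summit. These stretches were 36.2 and 16.7 kb in replicate 1, and only 5.25 and 5.29 kb in replicate 2. pdm2 had 4 ranked peaks at its starts in the series list, the strongest of 39.2 (score 254) 145 bp upstream of a start. The strongest in replicate 1 had a signal of 26.4 (score 38) and that in replicate 2 had one of 23.8 (score 131). The 2 genes of the pair therefore differed at their starts in the series list and in replicate 1, and both had a ranked peak in replicate 2.

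cas encodes the zinc finger factor Castor, which follows the POU factors. Its strongest start peak had a signal of 45.3 (score 181) in the series list, 21.5 (score 37) in replicate 1 and 22.9 (score 17) in replicate 2. A score of 17 is the lowest in the ranked list of replicate 2. The summits lay 783, 775 and 971 bp downstream of the start in these lists, so that of replicate 2 was apart from the others. cas stood at percentile 69.8 in the series list, and at 34.3 when only peaks within 500 bp of a start were taken. At the starts of grh the strongest peaks were 54.9 in the series list, 35.5 in replicate 1 and 29.2 in replicate 2. These were the highest among the members in each list, and they lay at different starts in the 3 lists. grh also had the most annotated starts of the members (5), with 10, 8 and 11 ranked peaks within 1 kb of them. The values were not adjusted for the number of starts.

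svp encodes a COUP-type nuclear receptor that closes the hb window. Its strongest start peak was 33.3 in the series list, 18.5 in replicate 1 and 14.8 in replicate 2, all 880 to 965 bp downstream of a start. With 44.0 kb it is the longest member and held 68 ranked peaks in its body, the highest of 59.2 (score 579) in a coding exon, 20494 bp from the nearest start, and none passed the threshold. The slp genes had start peaks of 31.3 (slp1) and 33.2 (slp2) in the series list, 14.6 and 18.1 in replicate 1, and none in replicate 2. Their percentiles in the series list were 46.9 (slp1) and 50.8 (slp2). Both were at 15.1 in replicate 2, the place shared by all 4201 genes without a ranked start peak in that list. The peak of slp2 in the series list lay 28 bp from the start with a score of 57, so the pair had weak candidates at its starts and its single strong peak between the genes. D encodes the Sox HMG-box factor Dichaete. Its strongest start peak had a signal of 43.1 (score 180) in the series list, 32.2 (score 232) in replicate 1 and 20.8 (score 51) in replicate 2, and lay 416 to 503 bp downstream of a start in all 3.

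**Figure D3:**
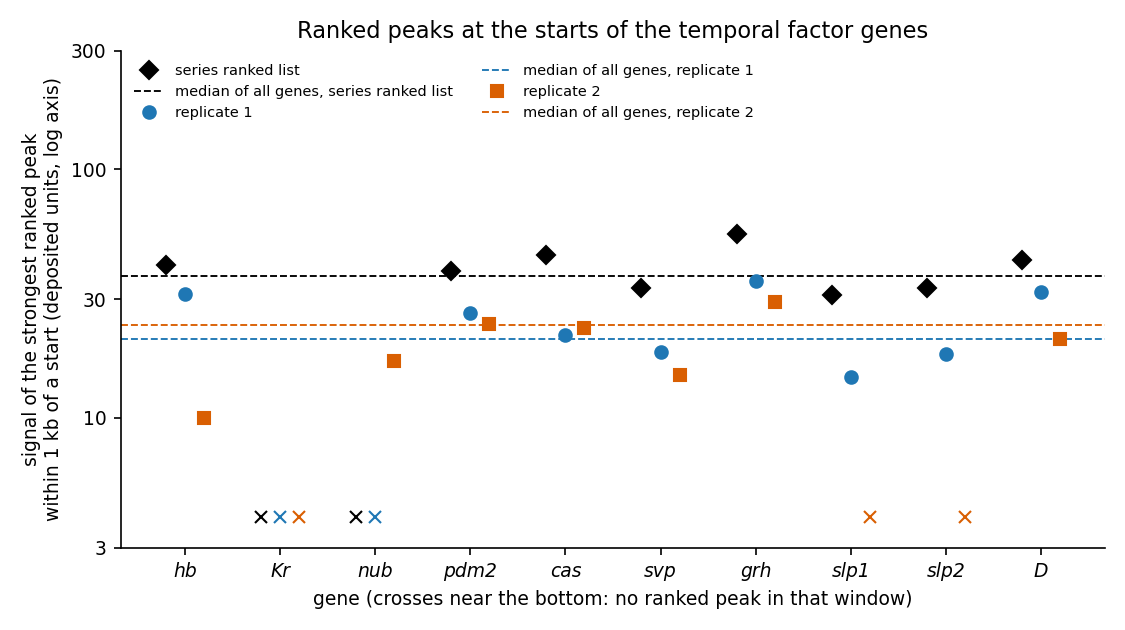
Signal of the strongest ranked peak within 1 kb of a start (log axis, deposited units) for each temporal factor gene in the ranked list of the series (black), of replicate 1 (blue) and of replicate 2 (orange). Crosses at the bottom mark genes with no such peak, and dashed lines the median of all genes with one in the same list. Each list has its own scale of signal, so points are to be read against the line of their own colour. grh and pdm2 lie above the line in each list, pdm2 only just in replicate 2 (23.8 against 23.7), and Kr has crosses only.

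Kr had no ranked peak within 1 kb of its start or in its body in any ranked list. Kr encodes a zinc finger gap factor that follows hb. In the series list no peak had its summit between 25166093 and 25267862 on 2R. This stretch of 102 kb was the 13th longest of 133002 intervals between neighbouring ranked summits, whose median was 649 bp, and 9 protein-coding genes lay wholly inside it. It measured 100.3 kb in replicate 1 and 86.1 kb in replicate 2. The series list had 48 such intervals of 50 kb or more, so Kr is not the only place of this kind. Why these lists hold no candidate there was not tested. The starts of nub also lay in stretches without ranked summits in the series list and in replicate 1, though shorter ones. By the ranking rule nub and Kr share the percentile of 8.44 with all 2355 genes that have no ranked start peak in the series list.

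For 7 members, all but grh, slp1 and slp2, the nearest thresholded peak lay nearer to the start of a gene outside the family. From the nearest start to the nearest pooled summit, the members had a median distance of 12.5 kb (quartiles 7.89 and 32.3 kb), against 11.3 kb (3.27 and 30.03 kb) over all protein-coding genes. The order, from near to far, was grh (2.09 kb), slp2 (4.35 kb), slp1 (6.82 kb), cas (11.1 kb), D (11.6 kb), pdm2 (13.4 kb), hb (17.8 kb), svp (37.1 kb), nub (58.5 kb) and Kr (207 kb). The pooled peak nearest to cas lay in an intron of plx, that nearest to D 610 bp from a start of nan, and that nearest to svp 174 bp from a start of CG4860. For hb it lay 150 bp from a start of Unc50, for pdm2 in a coding exon of CCT4, for nub in an intron of bun and for Kr in an intron of uzip. Overlapping peaks were nearest in both replicates for pdm2, svp, grh, slp1, slp2 and D. The distance of hb was 25.2 kb in replicate 1 and 17.6 kb in replicate 2. That of cas was 47.3 kb in replicate 1 and 11.2 kb in replicate 2, and that of nub 85.8 and 45.4 kb. For Kr the distance was 207 kb in replicate 1. It was 257 kb in replicate 2 and in the conservative list, where the nearest peak lay in an exon of RpL19. The pooled peak nearest to pdm2 had a score of 832, just inside the threshold, and was not in the other 3 lists, where the distance was 25.9 to 26.0 kb. The peak upstream of D was not in the conservative list, where the distance was 65.9 kb.

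**Figure D4:**
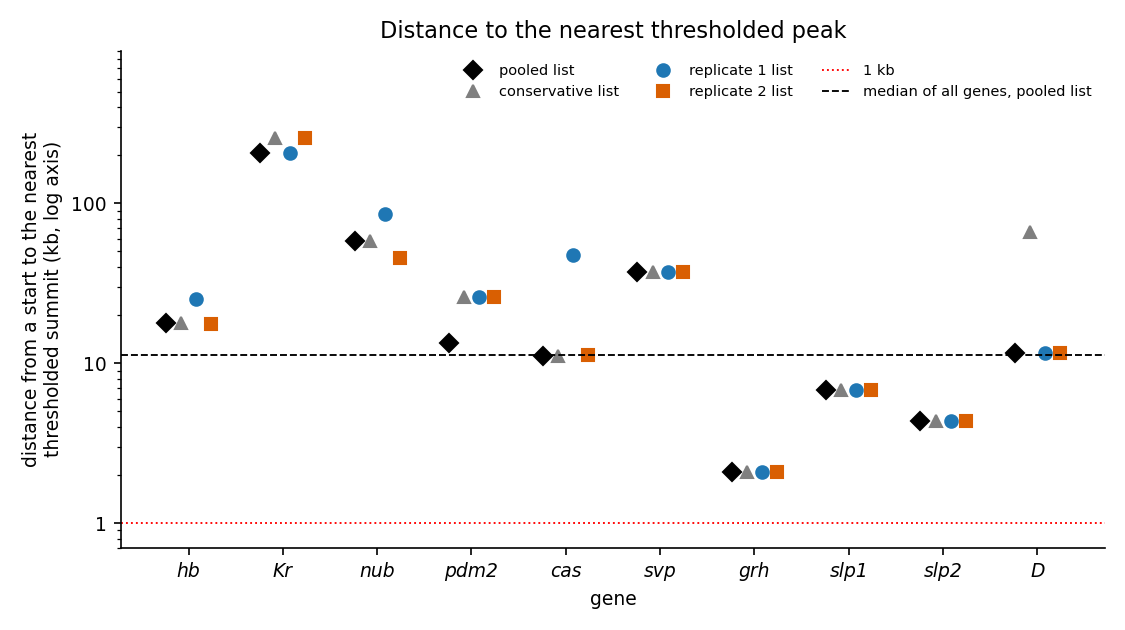
Distance in kb (log axis) from the nearest annotated start of each temporal factor gene to the nearest summit of the pooled, conservative, replicate 1 and replicate 2 thresholded lists. The dotted line marks 1 kb and the dashed line the median of 11.3 kb over all protein-coding genes in the pooled list. No point lies under 1 kb, and grh, slp1 and slp2 keep nearly the same distance in all 4 lists.

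Inside the gene bodies, the ranked list of the series had 1.20 to 1.71 peaks per kb in hb, pdm2, cas, svp, grh, slp1, slp2 and D, 0.444 in nub and 0 in Kr. Over the full length of the 6 arms, stretches between genes included, it had 0.993 per kb. No such value was computed over the bodies of all genes, so the members cannot be placed among them. In grh the highest body signal below its thresholded peak was 72.2. The highest body signals of the next members were those of svp (59.2), pdm2 (47.7), cas (45.3), nub (44.6) and D (43.1). In cas the list of replicate 2 had a peak of 35.3 with a score of 626 in a coding exon, 1879 bp from the start, and in replicate 1 the highest in the body was 21.8 with a score of 34.

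A second list of 19 temporal patterning genes, from other neuroblast series and from later stages, was counted in the same way (hth, erm, opa, ey, scro, BarH1, BarH2, tll, gcm, dan, danr, Imp, Syp, chinmo, br, mamo, EcR, Eip93F and lin-28). None had a peak at its start by the same rule in any of the 4 thresholded lists, beside the same 16.1% of all genes in the pooled list. In the gene body 6 of 19 had a pooled peak, beside 8.83% of all genes, and by the nearest start 5 of 19 did, with 15 peaks in all, beside 15.7%. The 5 genes, named here after their counts were seen, were hth, dan, chinmo, mamo and EcR. Gene length was not matched between this list and all genes.

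The windows around the strongest start peaks differed in composition from the thresholded peaks. Their annotation class differed too, in the members for which it is given here. The start summits of cas, slp1 and D lay in coding exons and those of hb, grh and slp2 in exons. The class of the start summits of pdm2 and svp is not given. The thresholded peaks of slp2 and grh lay between genes and in an intron. Class was not matched in the comparisons of this paragraph. Sequences of 50 bp on either side of the summit of 5 of these candidates in the series list are shown for comparison with that of the slp1-slp2 peak, on the plus strand of the same assembly, with GAGAG and CANNTG on either strand in capitals and CACNNG unmarked. They were chosen after their values were seen, and lie at 3R:8697417-8697517 (hb), 2L:12657527-12657627 (pdm2), 3R:5715972-5716072 (cas), 2L:3836818-3836918 (slp2) and 3L:14177070-14177170 (D).
hb: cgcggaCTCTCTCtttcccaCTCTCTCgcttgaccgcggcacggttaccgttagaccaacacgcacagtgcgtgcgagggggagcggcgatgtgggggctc
pdm2: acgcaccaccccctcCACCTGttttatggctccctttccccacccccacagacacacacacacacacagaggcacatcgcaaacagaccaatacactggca
cas: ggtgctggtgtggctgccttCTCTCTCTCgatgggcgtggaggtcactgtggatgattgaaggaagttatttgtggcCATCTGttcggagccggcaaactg
slp2: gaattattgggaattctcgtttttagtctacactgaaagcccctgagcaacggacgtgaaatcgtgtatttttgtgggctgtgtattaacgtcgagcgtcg
D: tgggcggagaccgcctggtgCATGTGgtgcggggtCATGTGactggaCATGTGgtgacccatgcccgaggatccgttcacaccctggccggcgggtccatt
hb and cas carry runs of CT, the GAGAG motif on the other strand, and D holds 3 E-boxes of the form CATGTG. Over windows of 100 bp on either side, the GC content of the 8 members with a start peak ran from 44.8% (slp2) to 66.7% (svp) with a median of 55.2%. Strongest start peaks of all genes without a pooled peak there had a median of 49.3% (quartiles 42.8 and 54.7%, 8005 windows), and all 8 members lay above the upper quartile of 42.8% of the pooled windows. GAGAG was in 4 of the 8 windows (22.7% of the 8005), an E-box in 4 of 8 (68.2%), CACNNG in 5 of 8 (74.3%), GTGGGTG in 2 of 8 (5.43%), those of pdm2 and grh, and GTGGGCG (5.10%), TATCGATA (1.8%) and GGTCACACT (0.837%) in none. A match is a run of letters in the window and does not show that a factor was bound.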

How the data were processed

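The authors deposited 8 peak lists in dm6 per the labels, a ranked and a thresholded list for each replicate and 2 of each for the series. Aligner, peak caller and IDR settings were not given in the sources used here. Column 5 holds the deposited score, capped at 1000. Column 7 holds the deposited signal, a peak height whose scale is unstated. The deposited −log10 q-value or IDR column was read for its range only. The main ranked list was the one that holds every pooled peak at the same place and score.

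Peaks on X, 2L, 2R, 3L, 3R and 4 were counted with Python 3.11.15 and NumPy 2.4.6 on Ensembl release 115 (BDGP 6.54) gene models without transposons. Sequences came from the RefSeq copy of BDGP release 6. All positions count from 1. The counting rules were tested on simulated peaks. With 1 group, no control library and 2 replicates, no test between groups was made, and replicates served as spread. The members and gene lists were chosen with earlier results of these data known. All 10 members are named, and neighbours by the nearest thresholded peak. BarH1 and BarH2 were matched as B-H1 and B-H2. Other start distances, lists, peak bases and single replicates were tried as alternatives, and figures were drawn with Matplotlib 3.10.9.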

Additional observations from a re-analysis of the deposited data

How the results depend on the processing

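The counts of members with a peak at a start (0), in the body (1) and by nearest start (2, with 2 peaks) were the same in the conservative list, without replicate 1, without replicate 2 and among pooled peaks above the median signal. They also held where tried with start distances of 500 bp and 2 kb, with any base of the peak in place of the summit, and with starts of all genes competing. A shorter distance or fewer pooled peaks cannot raise a count of 0, so the 500 bp and above-median settings could not change it. The peaks of slp2 and grh both exceeded the pooled median signal of 106, so the other counts were also fixed in the above-median setting. With a start distance of 5 kb, 2 members had a peak in place of 0. The median percentile of the members by start signal was 56.3, and without one replicate it ran from 45.4 (replicate 2 alone) to 55.8 (replicate 1 alone). Among values of single members, 19 of 60 percentiles and 13 of 30 distances moved by more than the SD of the 2 replicates. These tallies do not measure stability, because the single-replicate values that set each SD were also among the alternatives. The distance of grh counted as moved from 2091 to 2085 bp without replicate 2, while hb did not count as moved from percentile 64.8 to 83.1. The median percentile of the members was 49.1 and 50.1 with start distances of 500 bp and 2 kb, 57.0 by score and 56.8 in the other ranked list of the series. That list gave the strongest start peak of each member the same signal and place, so this setting could hardly change the median. The scores of these peaks did differ between the lists, such as 155 and 43 for hb and 180 and 342 for D. The median percentile without Kr, chosen after seeing the data, was 61.6. No paired analysis was possible because the samples form 1 group. Depth is unknown, so a weak candidate and a shallow library cannot be told apart.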
